A study of Saccharomyces cerevisiae with 12 samples.

Results

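SUMO peaks called in the 2 lists labelled ubc9-6 untreated were set against those of the 2 lists labelled WT (W303a) untreated. All nuclear peaks of the 4 lists were taken, with no threshold beyond that of the lists, which gave 2865 of the 3486 peaks in the 6 lists of the series. Overlapping peaks (at least 1 bp) of the 4 lists formed 930 regions. Budding yeast in mid-log growth at 30 °C had been used for chromatin immunoprecipitation of Smt3, which is SUMO in this species, and each precipitate was sequenced beside its own input. The ubc9-6 strain is in the W303 background and carries, at its UBC9 locus, a tandem repeat of a mutant ubc9 allele. Each group has 2 replicates, which the study describes as independent. A further group of 2 lists, labelled WT shifted to 37 °C for 12 min, is used only where named.

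The labels of the lists are in doubt. The names under which the lists were deposited hold letters that can be read as WT heat shock for the lists labelled ubc9-6, and as mutant under normal growth for the lists labelled WT heat shock. A peak list holds no sequence variant that could show the genotype. No list held a peak at the UBC9 promoter. The study reports that the mutation nearly abolished promoter peaks outside ribosomal protein genes, and that some peaks, particularly at tRNA genes, were stable. Of 137 ribosomal protein genes, 122 and 124 had a promoter peak in the lists labelled ubc9-6, against 129 and 127 in WT. In the lists labelled WT heat shock, 6 and 24 did. For 5865 other protein-coding genes the counts were, in the same order, 317 and 376, 418 and 472, and 157 and 176. Their match to the labels was not tested. The text therefore writes "labelled ubc9-6" throughout, and every difference below is one between labelled lists. The part of the labels in the differences was not tested.

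SUMO is a small protein that is joined to lysines of other proteins by a cascade of an activating enzyme (Aos1 and Uba2), the conjugating enzyme Ubc9 and ligases, and is removed by the proteases Ulp1 and Ulp2. Many of its targets sit on chromatin, among them transcription factors and subunits of the RNA polymerase III machinery. In yeast, SUMO is known to mark tRNA genes and the promoters of ribosomal protein genes (RPGs), where Rap1 binds. Hsf1 is the transcription factor that binds heat shock elements and drives chaperone genes.

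The sequences that carry the main differences are shown first, from RefSeq (sacCer3), in the direction of the gene. At 3 chaperone genes whose regions had a peak in both lists labelled ubc9-6 and in neither WT list, and at 2 whose fold enrichment was higher in both lists labelled ubc9-6, 151 bases around the first heat shock element within 500 bases of the start codon are given. Capitals mark the element, searched as 3 alternating TTC and GAA blocks with 2 bases between neighbours, on both strands, with overlapping matches joined.
HSP104, chrXII:88252-88402, plus strand: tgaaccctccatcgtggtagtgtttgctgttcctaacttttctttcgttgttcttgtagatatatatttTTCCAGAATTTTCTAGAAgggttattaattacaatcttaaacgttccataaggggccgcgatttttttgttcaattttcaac
HSP78, chrIV:974409-974559, minus strand: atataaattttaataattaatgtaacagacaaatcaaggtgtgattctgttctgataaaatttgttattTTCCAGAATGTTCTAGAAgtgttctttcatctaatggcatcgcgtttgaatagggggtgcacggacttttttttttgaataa
STI1, chrXV:380742-380892, plus strand: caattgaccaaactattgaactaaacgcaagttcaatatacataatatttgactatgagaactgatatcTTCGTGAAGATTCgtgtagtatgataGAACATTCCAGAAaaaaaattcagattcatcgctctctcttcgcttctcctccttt
KAR2, chrX:381053-381203, plus strand: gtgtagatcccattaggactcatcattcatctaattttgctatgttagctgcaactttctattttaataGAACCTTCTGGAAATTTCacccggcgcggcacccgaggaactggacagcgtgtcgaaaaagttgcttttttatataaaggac
SIS1, chrXIV:619828-619978, minus strand: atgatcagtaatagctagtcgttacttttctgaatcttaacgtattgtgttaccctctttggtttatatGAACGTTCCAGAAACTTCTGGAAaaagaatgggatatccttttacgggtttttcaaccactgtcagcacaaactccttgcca

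The windows of HSP104, HSP78 and SIS1 lay inside the merged region, that of KAR2 reached across its edge, and that of STI1 lay wholly upstream of it. The element was found in the 500 bases before the start codon of 4 of the 6 non-RPG genes with a gained promoter region (HSP104, HSP78, STI1 and HSP10), of 1 of 48 genes with a lost one and of 5 of 95 with one in all 4 lists, against 89 of all 6002 protein-coding genes (1.48%). Of the 30 genes on the Hsf1 chaperone list 15 held it, and these genes were listed as Hsf1 targets. HSP26 and SSA4 had no match in that window. HSP26 is shown by the 30 bases around its TATA element (TATA, then A or T, A, A or T, and A or G, in capitals), which lay from 165 to 136 bases before the start codon.
HSP26, chrII:381865-381894, plus strand: attcctaaacaTATAAATAggacctccatt

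The next set belongs to regions that were lower in fold enrichment in, or absent from, both lists labelled ubc9-6. The windows of RPL28 (ribosomal protein gene), IMD3 (an enzyme of guanine nucleotide synthesis), SNR45 (a small nucleolar RNA) and the aspartate tRNA gene YNCL0008W are the 151 bases around the summit, and PDC1 (pyruvate decarboxylase) and TIF2 (a translation initiation factor) are given as 30 bases. Capitals mark the Rap1 motif with up to 2 mismatches in RPL28, the B box (GTTC, any base, A, any 2 bases, C) of the tRNA gene, and the TATA element in the others.
RPL28, chrVII:310632-310782, plus strand: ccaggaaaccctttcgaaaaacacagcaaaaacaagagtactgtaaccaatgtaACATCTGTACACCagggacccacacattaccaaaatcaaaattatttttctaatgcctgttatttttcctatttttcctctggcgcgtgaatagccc
YNCL0008W, chrXII:427046-427196, plus strand: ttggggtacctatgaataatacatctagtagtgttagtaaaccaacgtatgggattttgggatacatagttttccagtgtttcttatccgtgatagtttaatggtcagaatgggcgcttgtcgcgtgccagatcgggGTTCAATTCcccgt
SNR45, chrXVI:821648-821798, plus strand: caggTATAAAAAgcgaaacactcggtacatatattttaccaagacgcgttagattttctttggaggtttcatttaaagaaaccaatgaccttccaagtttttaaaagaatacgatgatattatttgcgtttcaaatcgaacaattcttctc
PDC1, chrXII:234206-234235, minus strand: ggaaaaaaaaaTATATAAAcaaggctcttt
IMD3, chrXII:1002244-1002394, plus strand: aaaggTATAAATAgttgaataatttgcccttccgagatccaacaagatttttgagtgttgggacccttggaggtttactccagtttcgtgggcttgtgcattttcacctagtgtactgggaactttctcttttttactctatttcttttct
TIF2, chrX:154801-154830, minus strand: tttttcagcatCATATATAAAAGaaatctc

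Counted in the 151 bases around each summit on both strands, the Rap1 motif was in 86 of the 118 RPG regions with a peak in all 4 lists (72.9%), against 3.63% of 6001 promoter windows of the same length. A TATA element was in 21 of 44 lost non-RPG regions (47.7%) and in 36 of 74 non-RPG regions with a peak in all 4 lists (48.6%), against 26.7% of promoter windows. The B box was in 175 of 259 tRNA regions (67.6%), against 4.40% of promoter windows. In these summit windows the heat shock element was in 1 of 16 gained regions (6.25%), that of HSP78. It was in 1 of 544 regions with a peak in all 4 lists and in 0 of 68 lost regions, against 0.567% of promoter windows.

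The number and shape of the lists come first. The lists labelled ubc9-6 held 600 and 709 nuclear peaks, against 714 and 842 for WT (654.5 ± 77.1 against 778.0 ± 90.5, SD, n = 2 each). The groups did not overlap, and an exact permutation test over 2 against 2 lists gave p = 0.333, the smallest it allows. Median peak width was 561 and 602 bp in the lists labelled ubc9-6, against 542 and 589 bp in the WT lists, which overlap. Of the nuclear genome, 3.30% and 4.12% lay under peaks of the lists labelled ubc9-6, against 3.42% and 4.62% for WT. Fold enrichment, the ratio of immunoprecipitate to local background at the summit, had a median of 4.48 and 4.68 in the lists labelled ubc9-6, against 6.01 and 4.90 in the WT lists. The median summit held 587 and 703 fragments in the lists labelled ubc9-6, against 733 and 683 in the WT lists, for which counting error alone is 3.69% to 4.13%.

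Most WT regions were also present in the lists labelled ubc9-6. Of 659 regions with a peak in both WT lists, 544 (82.5%) had a peak in both lists labelled ubc9-6, 47 in 1 of them and 68 (10.3%, called lost) in neither. Of 576 regions with a peak in both lists labelled ubc9-6, 16 (2.78%, called gained) had none in a WT list. Retention differed by class of gene. It was 259 of 264 at tRNA genes, 118 of 122 at RPGs, 33 of 50 at other noncoding genes, 74 of 137 at promoters of non-RPG genes, and 60 of 86 elsewhere. The 16 gained regions were 6 at promoters of non-RPG genes and 10 in no class, and none lay at a tRNA gene or an RPG.

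Retention followed peak strength. Sorted by the smaller of the 2 WT fold enrichments, both lists labelled ubc9-6 held 7 of 27 regions under 1.5-fold, 35 of 95 from 1.5- to 2-fold, 62 of 93 from 2- to 3-fold, 55 of 59 from 3- to 5-fold, and all 385 at 5-fold or more. At 2- to 3-fold, 33 of 49 non-RPG regions, 7 of 15 noncoding regions and none of 4 tRNA regions were retained. Leaving out 1 list moved the gained count up to 67 (without replicate 1 labelled ubc9-6) and 28 (without WT replicate 2), and the lost count up to 111 (without replicate 2 labelled ubc9-6) and 201 (without WT replicate 1). With only the best 600 peaks of each list, retention was 92.2% and 24 regions were lost.

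**Figure D1:**
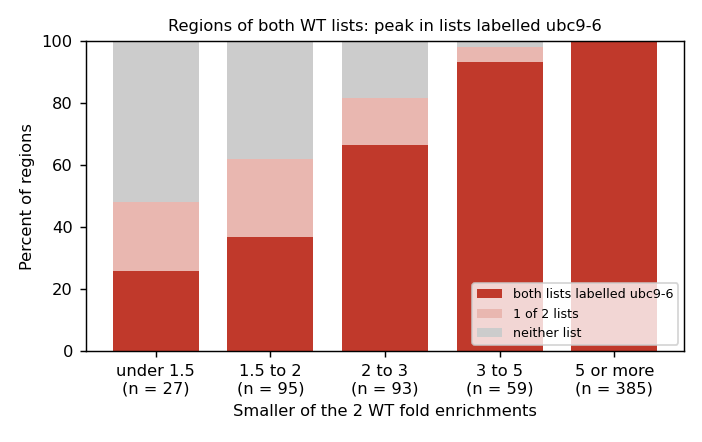
Regions with a peak in both WT lists, grouped by the smaller of their WT fold enrichments (x axis), with the percent (y axis) that had a peak in both, 1 or neither of the lists labelled ubc9-6. Retention was 25.9% under 1.5-fold and 100% at 5-fold or more.

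Gained regions lay mostly at genes of the chaperone list. Of the 16, 13 had a gene of the Hsf1 chaperone list as the assigned or nearest gene (81.2%), against 28 of all 930 regions (3.01%), 5 of the 544 in all 4 lists and none of the 68 lost. The list was chosen with earlier results of these data known, so this share and the counts over its 30 genes below are descriptions. The remaining 3 lay inside HXT7, a hexose transporter gene with near-identical paralogues, inside EFB1, and near LSP1. The highest belonged to HSP26, a small heat shock protein gene, at 2.26- and 3.79-fold in the lists labelled ubc9-6 (283 and 562 fragments at the summit), with no peak in a WT list. HSP104, the protein disaggregase, had 1.96- and 2.28-fold, and its 2 peaks spanned 3366 and 3534 bp. SSA4, a stress-induced cytosolic chaperone, had 1.69- and 1.86-fold. HSP78, the mitochondrial disaggregase, had 1.57- and 1.97-fold, and STI1, a cochaperone, 1.66- and 1.46-fold. Summits inside the reading frames of HSP60 (1.80- and 1.89-fold) and SSC1 (1.56- and 1.75-fold), both mitochondrial chaperones, completed the named set with HXT7 at 1.46- and 1.53-fold. All but HSP26 and HSP104 were under 2-fold in both lists. At a minimum fold of 2 in every list 3 regions were gained, but of the 16 only HSP26 reached that fold in both lists labelled ubc9-6.

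**Figure D2:**
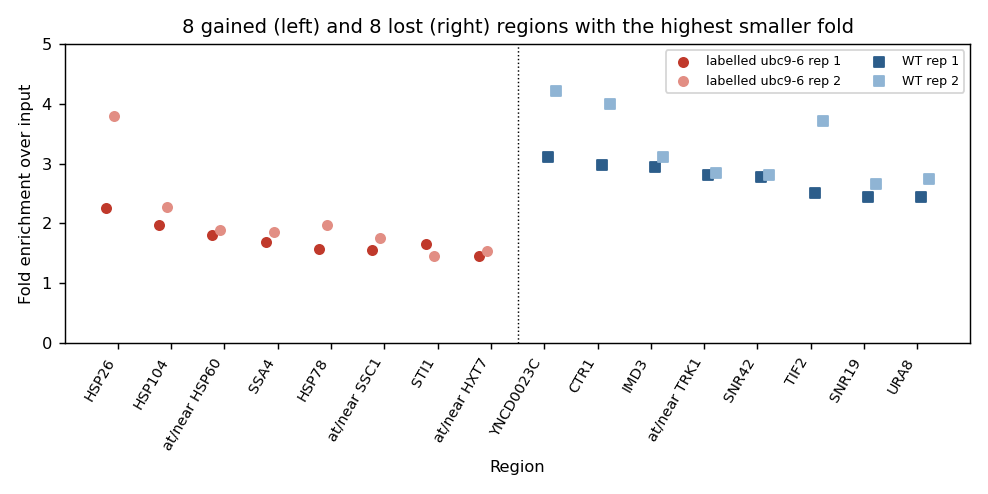
Fold enrichment over input (y axis) in each list for the 8 gained regions (left) and the 8 lost regions (right) with the highest smaller fold of their group. A list with no point had no peak there. HSP26 reached 3.79 in replicate 2 labelled ubc9-6, and YNCD0023C reached 4.22 in WT replicate 2.

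Promoter peaks were also counted gene by gene. Among the 30 genes of the Hsf1 chaperone list, 14 had a promoter peak (summit from 500 bp before to 200 bp after the start codon) in both lists labelled ubc9-6 and 6 in both WT lists, against 5.1% and 6.34% of all 5865 non-RPG genes. Of the 30, 6 had one in both lists labelled ubc9-6 and in neither WT list (HSP26, HSP104, SSA4, HSP78, HSP10 and STI1), against 7 of all 5865 genes (0.119%), of which the other was LYS9. HSP82, an inducible cytosolic chaperone gene with a close paralogue, had 3.41- and 3.58-fold in the lists labelled ubc9-6, against 1.92-fold in WT replicate 1 and no peak in WT replicate 2. Its paralogue HSC82 had 2.31- and 2.35-fold in the lists labelled ubc9-6, against 2.33-fold and no peak. SSA2, a constitutive cytosolic chaperone gene, was the gene of the list with a promoter summit in both WT lists (2.51- and 1.89-fold) and in neither list labelled ubc9-6. SBA1 had a peak in every list (4.96 and 6.15 in the lists labelled ubc9-6, 8.46 and 11.5 in WT), and the summit lay more than 440 bp upstream. HSP150, a cell wall protein gene, had 2.00- and 2.77-fold in the lists labelled ubc9-6, against 2.91- and 3.67-fold in WT. In each list labelled WT heat shock, 1 of the 30 genes (SBA1) had a promoter peak, against 157 and 176 of all 5865 non-RPG genes.

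The peaks at these genes were also wider and ran through the reading frames. The reading frames of HSP104, HSP82, HSC82, SSA2, KAR2 and BTN2 lay wholly (100%) under peaks in both lists labelled ubc9-6, against at most 5.5% in a WT list. SSA1 was covered by 85.7% and 100% in the lists labelled ubc9-6, against 0.881% and 0% in WT. At KAR2, the chaperone of the endoplasmic reticulum lumen, peaks measured 2665 and 2763 bp in the lists labelled ubc9-6, against 351 and 240 bp in WT, while the summit stayed within 60 bp of the start codon in each. BTN2, a gene for protein sorting, and SSA1 were covered by peaks whose summits lay outside them. HSP26 was covered by 28.1% and 100% in the lists labelled ubc9-6 and STI1 by 12.0% and 65.8%, against 0% for both in WT, so replicate 2 was the broader at these genes. Of the 30 genes, 18 were more covered in both lists labelled ubc9-6 than in both WT lists, against 67 of 5865 genes (1.14%), and none was less covered (1.31% of 5865). In the lists labelled WT heat shock no base of the 30 reading frames was under a peak. Coverage there was low over all 5865 genes too, with a mean of 0.141% and 0.255% of the reading frame.

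By a cut chosen after the values were seen, 9 of 5865 genes (0.153%) had at least 50% of the reading frame under peaks in both lists labelled ubc9-6 and under 10% in both WT lists. They were SSA1, SSA2, BTN2, KAR2, HSP104, HSC82, HSP82, HSP10 and MBF1, a transcriptional coactivator gene that is not on the list. The reverse held for ECM15 alone, at 0% in both lists labelled ubc9-6 and 93.7% and 100% in WT. Long peaks were not limited to these genes. The mean share of reading frame under peaks over 17 glycolytic genes was 39.1% and 45.9% in the lists labelled ubc9-6, against 12.6% and 37.5% in WT.

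**Figure D3:**
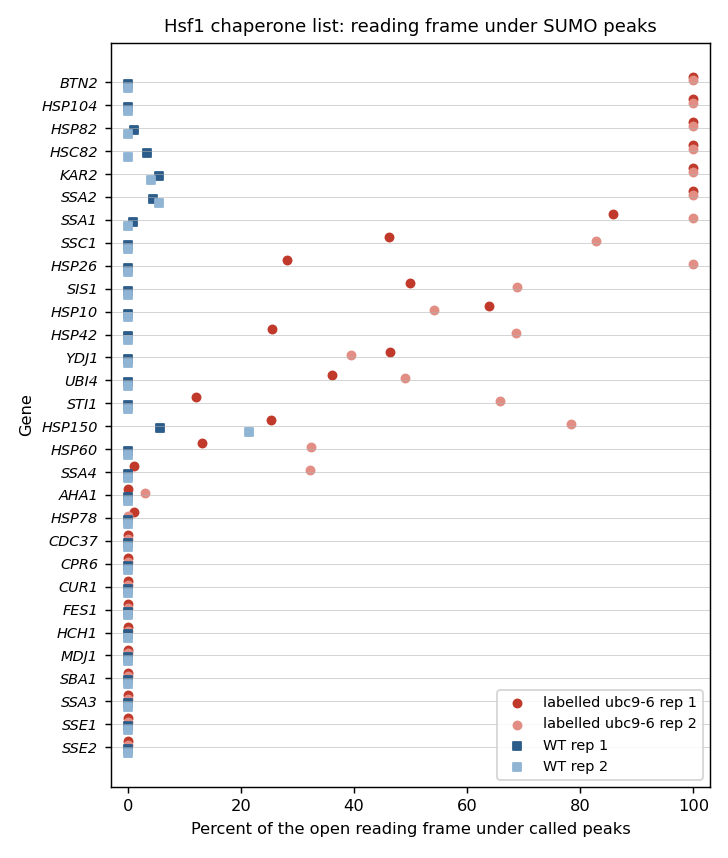
Percent of the open reading frame under called SUMO peaks (x axis) for each of the 30 genes of the Hsf1 chaperone list (y axis), in each of the 4 lists. In 6 genes both lists labelled ubc9-6 reached 100%, and HSP150 had the highest WT value, 21.3%.

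Lost regions were mostly weak in WT and spread over many kinds of gene. The phenylalanine tRNA gene YNCD0023C had the highest smaller fold, with no peak in the lists labelled ubc9-6, against 3.11- and 4.22-fold in WT. CTR1, a copper transporter gene, had 2.97- and 4.002-fold in WT, and IMD3 had 2.94- and 3.11-fold. TIF2 had 2.51- and 3.71-fold in WT, and its paralogue TIF1 makes reads there uncertain. URA8, a gene for the synthesis of CTP, had 2.44- and 2.74-fold in WT. A region near TRK1 (2.81 and 2.84), the small nucleolar RNA gene SNR42 (2.77 and 2.80) and the spliceosomal RNA gene SNR19 (2.45 and 2.66) made up the rest of the named set. Of all 68 lost regions, 14 had a smaller WT fold under 1.5, 36 from 1.5 to 2, 17 from 2 to 3, and 1 above that.

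Genes of translation and mating were among those with a promoter peak in WT lists only. Over all 5865 non-RPG genes, 6.34% had a promoter peak in both WT lists and 5.1% in both lists labelled ubc9-6. Of 12 translation factor genes, 6 had a promoter peak in both WT lists and 2 (TEF1 and TEF2, a near-identical pair) in both lists labelled ubc9-6. TEF4, EFB1, EFT2 and TIF2 had one in both WT lists and in neither list labelled ubc9-6, against 59 of 5865 genes (1.01%). EFT2, an elongation factor gene with a paralogue, had 2.46- and 2.26-fold in WT, and EFB1 2.57- and 2.03-fold. EFB1 was not free of peaks in the lists labelled ubc9-6, where a gained region (1.59- and 1.36-fold) had its summit inside the gene. Of 22 mating genes, 6 had a promoter peak in both WT lists and 1 (MFA2, a pheromone gene) in both lists labelled ubc9-6. STE2, the alpha-factor receptor gene, had no peak in the lists labelled ubc9-6, against 2.08- and 2.80-fold in WT, and STE12, the transcription factor of the pathway, had none against 1.66- and 2.34-fold. SST2, the regulator that shuts the pathway off, had none against 1.72- and 2.16-fold. These 3 of 22 mating genes with a promoter peak in WT lists only stand against 1.01% of all 5865 genes.

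The remaining gene lists were counted in the same way, against 6.34% of all 5865 non-RPG genes in both WT lists and 5.1% in both lists labelled ubc9-6. Of 17 glycolytic genes, 9 had a promoter peak in both WT lists and 5 in both lists labelled ubc9-6, with none in WT lists alone. The other 4 had a peak in replicate 2 labelled ubc9-6. TDH3, a glyceraldehyde-3-phosphate dehydrogenase gene with near-identical paralogues, had 5.08- and 6.29-fold in the lists labelled ubc9-6, against 6.95- and 6.44-fold in WT. CDC19, pyruvate kinase, had 2.07- and 2.42-fold in the lists labelled ubc9-6, against 4.77- and 4.14-fold in WT. Of 20 cell wall and cell separation genes, 9 had one in both WT lists and 3 (CCW12, DSE1 and SCW11) in both lists labelled ubc9-6. CCW12, a cell wall mannoprotein gene, had 2.60- and 3.53-fold in the lists labelled ubc9-6, against 6.94- and 6.69-fold in WT. Of 16 stress genes of the Msn2 and Msn4 regulon, none had one in both lists of either group, and HSP12 (1.83-fold) and GPH1 (1.57-fold) had one in replicate 2 labelled ubc9-6. Of 31 amino acid synthesis genes, 4 had one in both lists labelled ubc9-6 and 5 in both WT lists. Of 8 fermentation genes, 2 (PDC1 and ADH1) had one in both lists labelled ubc9-6 and 3 in both WT lists.

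Of 11 SUMO pathway genes, 2 had a promoter peak in both lists of each group. UBA2, a subunit of the SUMO-activating enzyme, had 6.11- and 8.19-fold in the lists labelled ubc9-6, against 13.02- and 15.4-fold in WT. The region of the UBA2 peak was not placed in the non-RPG class, so its link to this gene is uncertain. SLX8, a subunit of a SUMO-targeted ubiquitin ligase, had 17.7- and 24.97-fold in the lists labelled ubc9-6, against 25.4- and 47.7-fold in WT, at a summit shared with a ribosomal protein promoter. SMT3 itself had a peak in WT replicate 2 only, at 1.73-fold.

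Where all 4 lists had a peak, fold enrichment was lower in the lists labelled ubc9-6. Over these 544 regions both lists labelled ubc9-6 were below both WT lists in 451 (82.9%) and above them in 3 (0.551%). The median log2 fold enrichment was 2.26 and 2.52 in the lists labelled ubc9-6, against 2.90 and 3.42 in the WT lists, and the exact permutation test over lists gave p = 0.333, its smallest value. The median difference per region was −0.77 on the log2 scale, a ratio of 0.588. In limma on the log2 fold enrichment as deposited, with Benjamini-Hochberg adjustment over the 544 regions, 251 regions were lower (46.1%) and 0 higher (0%), and at an unadjusted p under 0.05 limma gave 383 lower and 0 higher. The fit gave every region the same SE of 0.347, so the calls follow the size of the difference. They also rested on single lists, since without either list labelled ubc9-6 limma called 0 regions lower, without WT replicate 1 it called 490, and without WT replicate 2 it called 72.

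Much of this difference was common to all regions. When each list was centred on its own median, limma called 0 regions lower and 0 higher (24 and 63 at an unadjusted p under 0.05), and quantile normalization gave 5 lower and 6 higher. Relative to the list medians, the median difference was −0.04 at tRNA regions, −0.01 at RPG regions, −0.15 at noncoding regions, +0.30 at non-RPG regions and +0.41 at regions in no class. These medians leave out the lost regions. Lost were 44 of 137 WT regions at non-RPG promoters, 10 of 50 noncoding, 8 of 86 in no class, 3 of 122 at RPGs and 3 of 264 at tRNA genes. A list-wide shift in fold enrichment and a loss at each region cannot be told apart in these lists, which hold no spike-in.

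**Figure D4:**
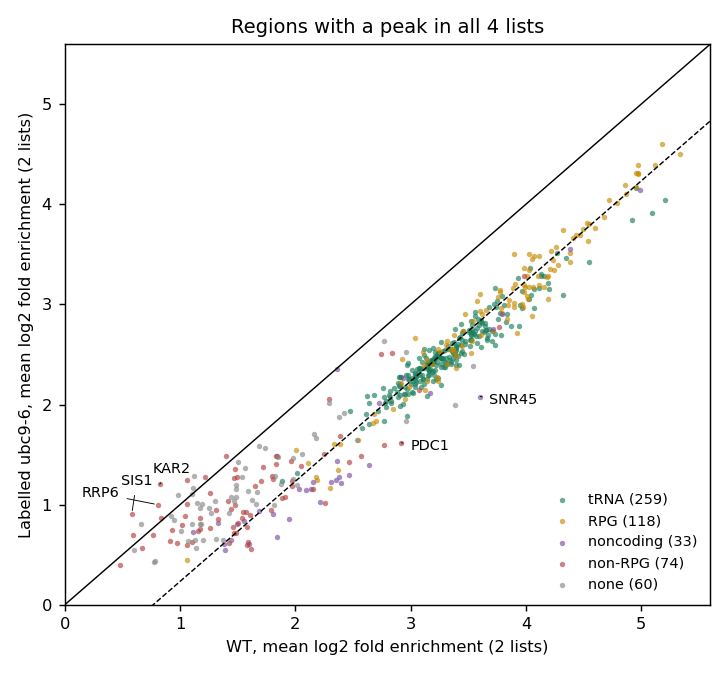
Mean log2 fold enrichment of the 2 lists labelled ubc9-6 (y axis) against that of the 2 WT lists (x axis) for the 544 regions with a peak in all 4 lists, coloured by class. The solid line marks equality and the dashed line the median difference of −0.77; tRNA and RPG regions lie along the dashed line, and KAR2, SIS1 and RRP6 lie above the solid one.

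At tRNA genes, which RNA polymerase III transcribes with TFIIIC bound to their A and B boxes, the median fold enrichment was 5.11 and 6.03 in the lists labelled ubc9-6, against 8.22 and 11.4 in the WT lists. Both lists labelled ubc9-6 were below both WT lists in 256 of the 259 regions (98.8%, against 82.9% of all 544 regions). Limma called 148 lower (57.1%, against 46.1% of all regions). The median difference was −0.81, and over 20 amino acids it ran from −0.74 for lysine (20 genes) to −0.92 for aspartate (11 genes). Of 275 nuclear tRNA genes, 264 had a peak within 250 bp in both lists labelled ubc9-6 and 268 in both WT lists. The 5 with one in both WT lists but not in both lists labelled ubc9-6 were YNCD0023C (phenylalanine), YNCG0030C (cysteine), YNCG0032W (arginine), YNCH0002C (valine) and YNCN0008C (aspartate). The region highest in both groups was at the threonine tRNA gene YNCH0015W, with 16.96- and 16.01-fold in the lists labelled ubc9-6, against 30.5- and 44.6-fold in WT (log2 difference −1.16, SE 0.347, limma adjusted p = 0.0297). YNCL0008W, whose window is printed above, had 8.06- and 9.10-fold in the lists labelled ubc9-6, against 16.6- and 24.2-fold in WT (−1.23). Near-identical tRNA genes share reads, so single genes are uncertain.

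At RPG promoters the median was 6.94 and 9.66 in the lists labelled ubc9-6, against 10.4 and 20.2 in the WT lists. Replicate 2 labelled ubc9-6 thus came close to WT replicate 1. Both lists labelled ubc9-6 were below both WT lists in 88 of 118 regions (74.6%, against 82.9% of all 544 regions). The median difference was −0.78, and 58 regions were called lower by limma (49.2%, near the 46.1% of all regions). RPL28 had 6.23- and 6.88-fold in the lists labelled ubc9-6, against 11.2- and 20.7-fold in WT (−1.22, SE 0.347, limma adjusted p = 0.0297). The highest region of the lists labelled ubc9-6 was at RPL22B, with 21.0- and 27.9-fold, against 25.5- and 51.6-fold in WT (−0.58, limma adjusted p = 0.117). That of WT was at RPL2B, with 20.3- and 25.3-fold in the lists labelled ubc9-6, against 29.5- and 55.5-fold in WT (−0.84, limma adjusted p = 0.0461). Of 137 RPGs, 122 had a promoter peak in both lists labelled ubc9-6 and 126 in both WT lists, and all 121 with one in every list had a lower mean fold in the lists labelled ubc9-6.

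Noncoding genes other than tRNA genes, mostly small nucleolar and spliceosomal RNA genes, had medians of 2.13 and 2.37 in the lists labelled ubc9-6, against 4.49 and 4.68 in the WT lists. Both lists labelled ubc9-6 were below both WT lists in 32 of 33 regions (97.0%, against 82.9% of all 544 regions). The median difference was −0.92, and 23 were called lower by limma (69.7%, against 46.1% of all regions). SNR45 had 4.33- and 4.13-fold in the lists labelled ubc9-6 (543 and 606 fragments), against 12.7- and 11.7-fold in WT (1490 and 1461 fragments), the lowest difference of any region (−1.52, SE 0.347, limma adjusted p = 0.00661). The small nucleolar RNA gene SNR37 had 2.56- and 2.69-fold in the lists labelled ubc9-6, against 5.81- and 6.70-fold in WT (−1.25). SNR8 (−1.19) and SNR40 (−1.18) also fell at a limma adjusted p of 0.0297. SNR52, a small nucleolar RNA gene that RNA polymerase III transcribes, was the highest of the class in both groups, at 17.2- and 18.0-fold in the lists labelled ubc9-6, against 26.5- and 38.2-fold in WT (−0.85, limma adjusted p = 0.0441).

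**Figure D5:**
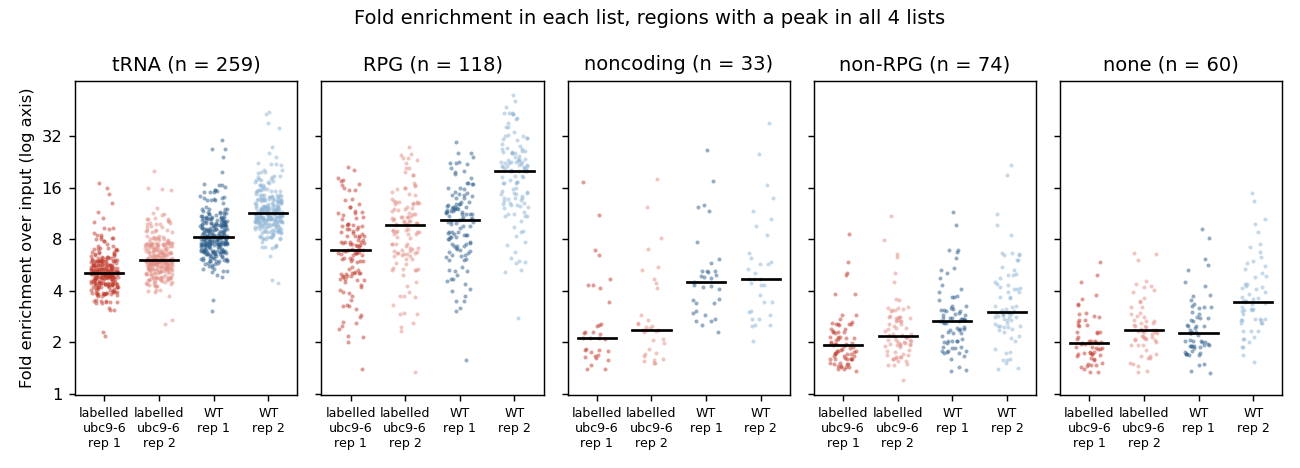
Fold enrichment over input (log y axis) of each region with a peak in all 4 lists, by class (panels) and list (x axis); points are regions and bars are medians. The noncoding medians are 2.13 and 2.37 in the lists labelled ubc9-6, against 4.49 and 4.68 in WT, while the medians of regions in no class overlap between groups.

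At non-RPG promoters the median was 1.93 and 2.19 in the lists labelled ubc9-6, against 2.68 and 3.01 in the WT lists. The median difference was −0.48, and 16 of 74 regions were called lower by limma (21.6%, against 46.1% of all regions). All 3 regions with both lists labelled ubc9-6 above both WT lists were here. PDC1 had 2.91- and 3.24-fold in the lists labelled ubc9-6, against 6.74- and 8.47-fold in WT (−1.30, limma adjusted p = 0.0297). ILV5, a gene for branched-chain amino acid synthesis, had 1.96- and 2.08-fold in the lists labelled ubc9-6, against 4.33- and 5.28-fold in WT (−1.25, limma adjusted p = 0.0297). ROX3, a Mediator subunit gene and the highest of the class in both groups, had 8.64- and 10.9-fold in the lists labelled ubc9-6, against 11.6- and 21.7-fold in WT (−0.71, limma adjusted p = 0.0634). The same peaks lay at the far edge of the promoter window of RPL32, a ribosomal protein gene. Their summits were at −791 and −800 bp from its start codon in the lists labelled ubc9-6 and at −787 bp in WT replicate 1. The class of this region is therefore uncertain. The difference was smaller among weak regions of this class, with a median of −0.17 over the 16 regions whose mean over the 4 lists was under 2-fold, −0.54 over the 48 from 2- to 4-fold and −0.82 over the 8 from 4- to 8-fold. Over all classes these medians were −0.35, −0.60 and −0.79.

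The 3 regions above both WT lists did not pass the test with fold values as deposited. KAR2 passed it with a replicate block (limma adjusted p = 0.0455) and SIS1 with quantile normalization (limma adjusted p = 0.04996). With list medians centred and no block, KAR2, SIS1 and RRP6 did not pass (limma adjusted p = 0.173, 0.115 and 0.102). With the block added all 3 passed (limma adjusted p at most 3.4e-10), but whether same-numbered lists form pairs is not given. The 3 were picked on these same fold values, so these p-values are descriptions. KAR2, a promoter shared with TAD2, had 2.40- and 2.21-fold in the lists labelled ubc9-6, against 1.97- and 1.59-fold in WT (+0.38, SE 0.347, limma adjusted p = 0.308). SIS1, a cochaperone gene that shares its promoter with LST8, had 1.78- and 1.97-fold in the lists labelled ubc9-6, against 1.61- and 1.39-fold in WT (+0.32, limma adjusted p = 0.382). RRP6, a subunit gene of the nuclear exosome, had 1.87- and 2.14-fold in the lists labelled ubc9-6, against 1.77- and 1.73-fold in WT (+0.19, limma adjusted p = 0.613). By rank of q-value KAR2 stood at 425 and 483 in the lists labelled ubc9-6, against 575 and 744 in WT.

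Regions in no class had medians of 1.98 and 2.35 in the lists labelled ubc9-6, against 2.28 and 3.45 in the WT lists, which overlap. The highest in the lists labelled ubc9-6 lay near NTH1, a trehalase gene, at 5.91- and 6.55-fold, against 5.29- and 8.80-fold in WT (−0.13, limma adjusted p = 0.725). The highest in WT lay at the end of chromosome III near GEX1, at 4.50- and 6.06-fold in the lists labelled ubc9-6, against 9.13- and 14.9-fold in WT (−1.16, limma adjusted p = 0.0297). Reads at chromosome ends are repeated, so this position is uncertain.

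The order of regions was close in all 4 lists. Over the 544 regions, Spearman's rho was 0.981 between the lists labelled ubc9-6, 0.958 between the WT lists, and 0.943 to 0.967 across groups. Regions share libraries and depth, so these values are descriptions. Of the 50 best regions of each list by rank, 36 were among the best 50 in all 4. The 50 best of each list were mostly RPGs and tRNA genes, with 36 and 37 RPGs in the lists labelled ubc9-6, against 27 and 38 in WT.

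Summits stayed in place. In 511 regions with 1 peak in each list, the median distance between a summit labelled ubc9-6 and a WT summit was 6 bp, and that between replicates was 6 bp in each group. It was 4 bp at tRNA and RPG regions, 11.5 bp at noncoding, 20 bp at non-RPG and 17 bp at other regions. The median position of RPG summits from the start codon was −332 and −334 bp in the lists labelled ubc9-6, against −336 and −334.5 bp in WT. In 3 regions the groups lay over 100 bp apart with replicates of each group within 100 bp. At SNR49, on chromosome XIV, the summits labelled ubc9-6 (715600 and 715589) lay near the start of LYS9, a lysine synthesis gene, and the WT summits (716098 and 716089) at the small nucleolar RNA gene. Fold enrichment there was 2.53 and 2.89 in the lists labelled ubc9-6, against 5.24 and 5.06 in WT. At SSA2 the summits labelled ubc9-6 (97084 and 97044 on chromosome XII) lay inside the reading frame, and the WT summits (97574 and 97559) upstream of it. The last of the 3 lay at YJR026W and YJR027W, copies of a Ty element, where positions are uncertain.

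In the same 511 regions peaks were somewhat narrower in the lists labelled ubc9-6, in 356 of them on the group means, with a median difference of −30 bp. Both lists labelled ubc9-6 were narrower than both WT lists in 120 and wider in 32. The median difference was −64.5 bp at RPG regions, where widths were 686.5 and 735.5 bp in the lists labelled ubc9-6, against 723 and 818 bp in WT. At tRNA regions it was −18.5 bp. Peak width moves with fold enrichment and depth, and their part in these widths was not tested.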

How the data were processed

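SUMO ChIP-seq peak lists of 4 immunoprecipitates, 2 labelled ubc9-6 untreated and 2 WT untreated, were compared, with groups taken from the sample titles. Per the labels, reads were aligned with Bowtie2 2.3.5 to sacCer3, and the authors called narrow peaks with MACS2 2.1.1.20160309, each immunoprecipitate with the matching input as control and replicates apart. The deposited lists give each peak's fold enrichment (a linear ratio over local background) and its p-value and q-value as −log10, beside an integer display score derived from the q-value, which was not used. Differential calls of the study made with DiffBind on reads were not used here. How reads with several equal positions were placed is not given in the sources used here. Mitochondrial peaks were left out.

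Peaks were merged at 1 bp of overlap. A region's class came from its summit of best q-value and the RefSeq annotation: a tRNA gene within 250 bp, an RPG from 800 bp before to 100 bp after the start codon, another noncoding gene within 250 bp, or a non-RPG from 500 bp before to 200 bp after it, in that order. The log2 of fold enrichment in regions with a peak in all 4 lists was fitted with limma 3.58.1 (R 4.3.3), without a replicate term, at an adjusted p of 0.05. Values per list were compared by exact permutation. Fragments at a summit were recovered from the deposited fold ratio and −log10 p-value; 99.5% of 3462 nuclear peaks of the 6 lists came within 0.05 of a whole number. Library totals are unknown. On simulated data the fit was checked with known changes. The simulated lists held no list-wide shift, so the check does not cover such a shift.

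Named regions were, among those in a class, the 8 with the largest fall and both lists labelled ubc9-6 below WT, and all 3 with both above; the 8 lost and 8 gained with the highest smaller fold; list genes with a peak; and the highest region of each class. The gene lists, members and named regions were chosen with earlier results of these data known. Alternatives changed the way peaks were joined, minimum fold (2), minimum −log10 q (10), number of peaks (600), scaling, pseudocount (1), a fill of fold 1 for regions with no peak, a replicate block, and the lists included.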

Additional observations from a re-analysis of the deposited data

Results flagged for a closer look

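Outside the nuclear peaks compared here, 24 mitochondrial peaks were called in replicate 1 of the lists labelled WT heat shock, whereas the other 5 lists, the 4 compared here among them, held 0. Mitochondrial DNA takes no part in any comparison above.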

How the results depend on the processing

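The difference in peaks per list (−123.5) kept its sign, at −110 with a fold of 2 or more, −127 at −log10 q of 10 or more and −187.5 to −59.5 without 1 list. The median summit shift of 6 bp was 4.5 to 6 bp under the alternatives run. The number of regions lower in fold (251) was 0 with list medians centred, 5 with quantile normalization, 20 with all 930 regions and no peak set to fold 1, 30 with a fold of 2 or more in all 4 lists, 224 with log2(fold + 1) and 249 with joined summits. The number higher (0) was 6 with quantile normalization and 2 with absent peaks set to fold 1. A replicate block gave 482 lower and 1 higher, and the replicate block with list medians centred gave 18 lower and 66 higher. Whether same-numbered lists form pairs is not given in the sources used here. With 2 pairs, deviations of same-numbered lists correlated at 0.467 over 544 regions, where replicate 2 was higher in both groups. An effect shared by same-numbered lists was not tested. Leaving out each list in turn gave 0 to 490 regions lower and 0 higher, with 1 list in a group assumed to vary like the others. The median log2 difference of −0.77 turned to 0.0083 with list medians centred, also with the replicate block, and ran from −1.05 to −0.48 without 1 list. Retention of 82.5% was 92.2% with 600 peaks per list and 66.8% to 89.1% without 1 list. The count of 16 gained regions was 3 at a fold of 2 or more, 5 at −log10 q of 10 or more, and 21 to 67 without 1 list. At such a cut a region whose WT peaks fall below it also counts as gained. The 68 lost became 24 with the best 600 peaks and 72 to 201 without 1 list. The median width difference of 16 bp was −13.5 bp with the best 600 peaks and −7.5 to 39.5 bp without 1 list. The count of 6 Hsf1 chaperone genes gained at their promoter was 3 at a fold of 2 or more, and 6 to 9 without 1 list. Of the 6, only HSP26 passed that cut in both lists labelled ubc9-6. The others counted were HSP82 and KAR2, whose WT peaks (1.92-fold, and 1.97- and 1.59-fold) fell below the cut.

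Of 18 named regions with a fit, 3 changed sign. With list medians centred (with or without the block) RPL22B was at 0.19, ROX3 at 0.068 and near NTH1 at 0.64. With quantile normalization they were at 0.19, 0.16 and 0.65, and near NTH1 was at −0.50 to 0.23 without 1 list. Over all 211 alternative fits of these regions, 131 kept their side of the threshold, 61 lost it, 9 passed it and 10 changed sign. KAR2, SIS1 and RRP6, above both WT lists, were at limma adjusted p of 3.9e-14, 4.5e-13 and 3.4e-10 with the replicate block and list medians centred. Without the block, centring gave limma adjusted p of 0.173, 0.115 and 0.102. Causes were not tested. Weak peaks limit the gained and lost counts, since 21.1% to 28.6% of the peaks of a list were under 2-fold.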
